A study of Homo sapiens with 6 samples.

Results

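UBD encodes FAT10, a ubiquitin-like protein, and PSMB8, PSMB9, PSMB10, PSME1 and PSME2 encode the parts that turn a standard proteasome into an immunoproteasome. These 6 genes are described here in a line of human myeloma cells with and without extra TAZ. UBD was near the floor of the ubiquitin family in control cells, with a mean of 1.83 TPM, and reached a mean of 50.03 TPM in cells with HA-TAZ. PSMB8, PSMB9 and PSME2 were also higher in every HA-TAZ library than in every control library, PSMB8 and PSME2 by more than any standard proteasome subunit and PSMB9 by about as much as the most changed one. Values of these same libraries chose the 6 genes, so this is a description. By TPM summed over all transcripts, PSMB10 and PSME1 sat at the level of the standard subunits. Their libraries overlapped between the groups in TPM as deposited. For PSMB10 that sum is led by a transcript annotated as a retained intron.

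The members are 6 of 56638 gene symbols in the deposited transcript table, and 21011 symbols were abundant enough to test. All 6 members passed the limit on level, a mean of at least 1 TPM over the 6 libraries. Symbols were matched by the name that the authors' deposited table gives each transcript, and TPM was summed over the 26 gene IDs and 131 transcripts that carry those names. TPM is a length-corrected share of a library. The members were chosen by measured values, namely their TPM in HA-TAZ 1 to 3 and in the control libraries, so their differences are given as a description, without a test.

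All 6 libraries come from KMS27, an established myeloma cell line, and myeloma is a cancer of plasma cells. In 3 libraries the treatment label is HA-TAZ, which is TAZ (the product of WWTR1, a coactivator held in check by the Hippo pathway) with a short HA peptide tag. In the other 3 libraries the treatment label is wild type, although the titles of these samples also hold the letters HA and the value columns taken for them carry the name scr, which no label explains. Both groups share the cell line, and no agent, dose or time is labelled for either. The promoter that drives HA-TAZ, whether the cells are a clone or a pool, and what the wild type cells received are not given in the sources used here. Nothing in the labels says that the libraries of a group came from separate cultures, so p-values measure only the spread between these libraries, which may be technical.

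WWTR1 was at 297 ± 7.42 TPM (SD, n = 3) in the HA-TAZ libraries and at 2.20 ± 0.497 TPM (n = 3) in the control libraries. The 8 plasma cell markers had mean levels from 5.47 to 204 TPM, and 8 of 10 markers of monocytes, T cells, B cells, fibroblasts and natural killer cells had a mean under 1 TPM, the highest of the 10 being at 1.68 TPM. None of the 10 was listed at 0 in all libraries. The summed markers of other cells ranged from 3.70 to 4.19 TPM in HA-TAZ and from 3.80 to 5.38 TPM in control libraries. Those of plasma cells ranged from 550 to 599 TPM in HA-TAZ and from 653 to 743 TPM in control libraries. After the scaling described next, the 8 plasma cell markers had a median log2 fold change of 0.0024, with 1 called higher, 1 called lower and 6 not called. The part of these markers in the results below was not tested. In bulk RNA, fewer cells of a type and less RNA per cell cannot be told apart. In TPM the median tested gene was lower in HA-TAZ by 0.27 on the log2 scale (a difference of -0.27), so TPM was also divided by a median-of-ratios factor per library. The factors were 0.847, 0.958 and 0.892 for the HA-TAZ and 1.23, 1.103 and 1.08 for the control libraries, and they lift HA-TAZ values relative to control values. After this scaling the median tested gene differed by 0.01. Values called scaled TPM carry these factors, and fold changes are on the log2(scaled TPM + 1) scale unless TPM is named, which understates the change of genes at low levels.

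Proteasomes degrade proteins that carry ubiquitin chains, and myeloma cells, which make antibody at a high rate, are treated with drugs that block them. The barrel-shaped 20S core holds 3 kinds of catalytic subunit. Under interferon gamma and in many immune cells, newly built cores take up PSMB8, PSMB9 and PSMB10 in place of PSMB5, PSMB6 and PSMB7, which changes the peptides left for display on MHC class I. PSME1 and PSME2 form a ring-shaped activator that can sit on the core in place of the 19S regulatory particle. FAT10 is loaded by the enzymes UBA6 and UBE2Z, and proteins joined to it can go to the proteasome. UBD is known for its response to interferon gamma together with tumour necrosis factor.

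The start regions of the members were read to show which short letter patterns of interferon and NF-kB factors they hold. The patterns were chosen knowing these genes' responses, and a match is a description of letters. RefSeq windows (GRCh38.p14) of 250 bases before and 50 bases after a gene start were searched on both strands for ISRE (GAAA, 2 free bases, GAAA), NF-kB (GGG, 2 free bases, TTTCC) and GAS (TTC, 3 free bases, GAA). No match of a different pattern overlapped those printed. Of 35116 windows of all genes, 3.57% held the ISRE letters, 1.91% the NF-kB letters and 7.66% the GAS letters. The UBD window at chr6:29559683-29559982, minus strand, is shown whole because UBD changed by far more than the other members. It held an NF-kB match whose first base lies at -53 from the start, in capitals, and no match to the ISRE or GAS letters.
UBD: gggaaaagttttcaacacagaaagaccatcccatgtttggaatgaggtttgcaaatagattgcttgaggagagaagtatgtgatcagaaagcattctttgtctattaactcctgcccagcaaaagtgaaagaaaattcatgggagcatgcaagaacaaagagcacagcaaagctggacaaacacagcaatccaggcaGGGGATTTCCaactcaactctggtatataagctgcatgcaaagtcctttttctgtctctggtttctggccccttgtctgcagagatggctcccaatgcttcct

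The windows of PSMB8, PSMB10, PSME1 and PSME2 each held 1 ISRE match, whose first bases lie at -4, -21, 6 and -28 from their starts. Stretches of 60 bases around the match are shown, 5′ to 3′ on the strand of the gene and with the match in capitals, to compare the core letters. On 1 strand or the other, all 4 matches read GAAAGCGAAA. PSMB8 lies at chr6:32844017-32844076 (minus), PSMB10 at chr16:67936837-67936896 (minus), PSME1 at chr14:24136174-24136233 (plus) and PSME2 at chr14:24146604-24146663 (minus).
PSMB8: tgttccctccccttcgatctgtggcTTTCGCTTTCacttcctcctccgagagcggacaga
PSMB10: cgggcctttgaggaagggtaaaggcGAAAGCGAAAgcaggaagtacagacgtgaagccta
PSME1: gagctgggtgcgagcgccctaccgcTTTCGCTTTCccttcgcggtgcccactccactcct
PSME2: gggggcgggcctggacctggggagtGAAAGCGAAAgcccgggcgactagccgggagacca

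The PSMB8 match lies in the second of 2 RefSeq windows of that gene, which also held a GAS match at -65, and the first held none of the patterns. The PSMB9 window, at chr6:32853942-32854241 on the plus strand, held none of them either. It overlaps the first window of TAP1, which runs the other way and encodes a subunit of the peptide transporter. That TAP1 window held an NF-kB match at -72 and overlapping ISRE matches at -134 and -128, shown with flanks at chr6:32853798-32853863 (minus) because TAP1 and PSMB9 are neighbours with different sizes of change.
TAP1: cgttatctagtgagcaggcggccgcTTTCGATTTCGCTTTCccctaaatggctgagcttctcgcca
The members with an ISRE match were PSMB8, PSMB10, PSME1 and PSME2. Whether these letters bear on the differences between the groups was not tested. UBD and PSMB9 held no ISRE match in these windows. The TAP1 stretch with ISRE matches ends at chr6:32853863, before the PSMB9 window begins at chr6:32853942. Those matches therefore also lie upstream of the PSMB9 start, outside the window searched. Sequence further from the starts was not searched.

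UBD, the modifier, was at 51.3, 53.4 and 45.4 TPM in HA-TAZ 1, 2 and 3 and at 1.58, 1.77 and 2.13 TPM in control a, b and c. The lowest HA-TAZ library stood far above the highest control library. In scaled TPM the means were 55.7 ± 4.88 against 1.62 ± 0.344 (SD, n = 3 each), a ratio of 34.4. The log2 fold change came to 4.44 (SE 0.12), and only that of WWTR1, at 6.83, was larger among all tested symbols. UBD was the lowest of the 6 members in control and rose past PSMB9, PSMB10 and PSMB8 to the third place in HA-TAZ.

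**Figure D1:**
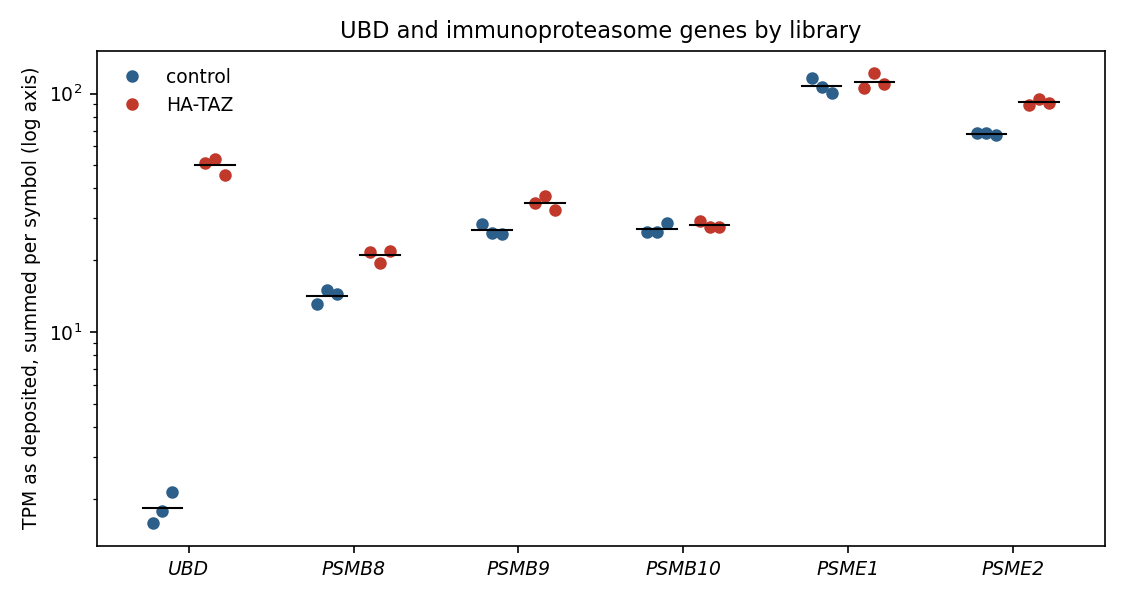
Level of each member in TPM (log axis) in the 3 HA-TAZ and 3 control libraries, 1 point per library. The UBD points sit between 45.4 and 53.4 TPM in HA-TAZ and between 1.58 and 2.13 TPM in control, while the points of PSMB10 and PSME1 overlap between the groups.

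Among the inducible catalytic subunits, PSMB8, which takes the place of PSMB5, was at 21.7, 19.4 and 21.9 TPM with HA-TAZ and at 13.1, 14.9 and 14.4 TPM in the controls. The groups did not overlap, and the log2 fold change was 0.86 (SE 0.13). PSMB9, the counterpart of PSMB6, was at 34.6, 37.1 and 32.4 TPM with HA-TAZ and at 28.5, 25.9 and 25.7 TPM in the controls. It too did not overlap, with a log2 fold change of 0.69 (SE 0.06). PSMB10, the counterpart of PSMB7, was at 29.2, 27.6 and 27.6 TPM with HA-TAZ and at 26.2, 26.3 and 28.7 TPM in the controls. In TPM as deposited control c exceeded 2 of the 3 HA-TAZ libraries, and in scaled TPM the groups did not overlap, with a log2 fold change of 0.38 (SE 0.10).

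The subunits of the activator ring moved by different amounts. PSME2, its beta subunit, was at 89.4, 95.2 and 91.0 TPM with HA-TAZ and at 68.1, 68.1 and 66.9 TPM in the controls. These groups stood well apart, with a log2 fold change of 0.77 (SE 0.06). PSME1, its alpha subunit and the most abundant member, was at 105, 122 and 109 TPM with HA-TAZ and at 117, 107 and 100.3 TPM in the controls. The groups overlapped in TPM as deposited and stood apart in scaled TPM, with a log2 fold change of 0.39 (SE 0.04).

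By TPM, which allows levels of different genes to be compared per length, the order in HA-TAZ was PSME1, PSME2, UBD, PSMB9, PSMB10 and PSMB8, and no neighbours in that order overlapped. In control it was PSME1, PSME2, PSMB10, PSMB9, PSMB8 and UBD, and only PSMB10 and PSMB9 overlapped. In scaled TPM the HA-TAZ and control libraries did not overlap for any of the 6 members, and without overlap 23.1% of all tested symbols were higher and 39.1% differed in either direction. With limma at a Benjamini-Hochberg adjusted p of 0.05, 5 of the 6 were called higher, all but PSMB10, and none lower, beside 7.13% of all tested symbols called higher and 2.74% called lower. By TPM as deposited 4 members were called higher and 4 were higher without overlap. On that scale 1.26% of the tested symbols were called higher, 16.3% lower and 17.6% in either direction, and without overlap 4.21% were higher, 44.6% lower and 48.8% in either direction. Nothing is read from these counts, since the same contrast chose the members.

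The share of each inducible subunit in the TPM of its pair does not depend on the scaling of a library. PSMB8 made up 26.1%, 22.7% and 25.4% of the sum of PSMB8 and PSMB5 in HA-TAZ and 17.5%, 20.8% and 20.3% in control libraries. The means were 24.7% ± 1.83 and 19.5% ± 1.76 (SD, n = 3), with no overlap. PSMB9 made up 37.7% ± 1.201 of its sum with PSMB6 in HA-TAZ and 33.7% ± 1.74 in control, again with no overlap. PSMB10 made up 23.01% ± 0.808 of its sum with PSMB7 in HA-TAZ and 22.6% ± 1.68 in control, and these groups overlapped. Together the 3 inducible catalytic genes held 28.01% ± 0.625 of the TPM of all 6 catalytic genes in HA-TAZ and 25.02% ± 0.907 in control, so the standard genes held most of it in both. In the activator ring, PSME2 made up 45.9%, 43.9% and 45.4% of its sum with PSME1 in HA-TAZ and 36.9%, 38.9% and 40.01% in control libraries, without overlap.

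**Figure D2:**
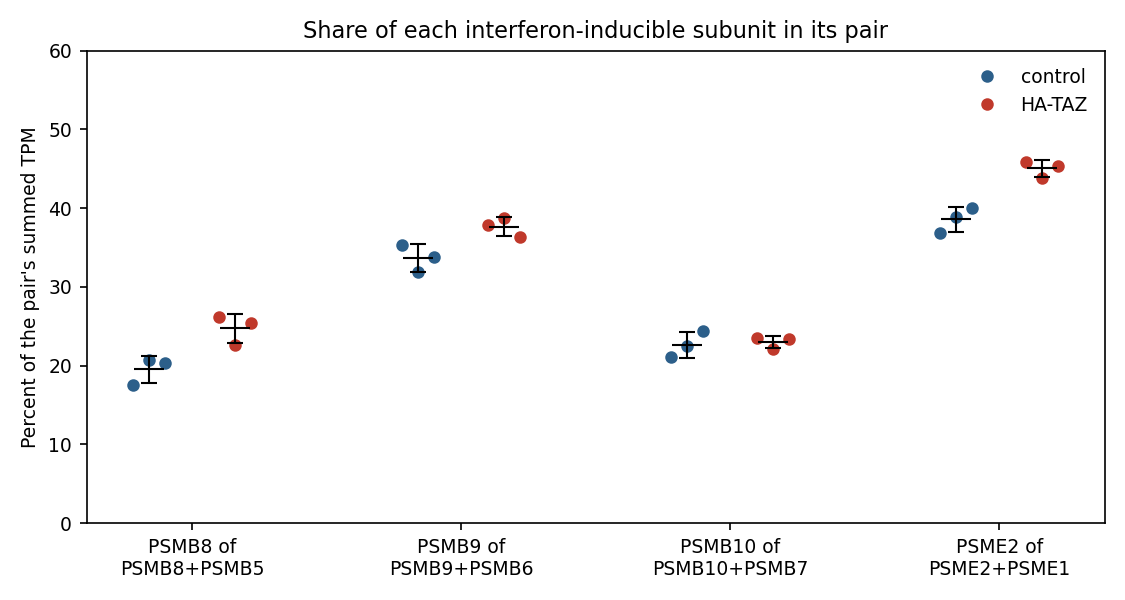
Percent of the summed TPM of each pair that came from the inducible gene (for the ring, from PSME2), with 1 point per library and bars for the mean ± SD of the 3 libraries of a group. The groups are apart for PSMB8, PSMB9 and PSME2 and overlap for PSMB10, whose means are 23.01% and 22.6%.

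The 33 standard subunits were taken as a reference, as a description only, since values of the same libraries chose the members. These subunits are PSMB5, PSMB6 and PSMB7, 11 other core subunits and 19 subunits of the 19S particle, which recognises ubiquitin and unfolds the substrate. Their summed level was 3162 ± 143 TPM with HA-TAZ against 3168 ± 103 TPM in control (SD, n = 3), and the groups overlapped (two-sided exact permutation p = 0.9). In scaled TPM it was 3523 ± 155 against 2792 ± 107, a ratio of 1.26 with no overlap and an exact permutation p = 0.1, the smallest that 3 libraries against 3 allow. Whether the standard proteasome counts as level or higher therefore rests on the scaling. Per 1000 TPM of these 33 genes, a measure free of the scaling, UBD was at 15.8 ± 0.770 in HA-TAZ and 0.578 ± 0.106 in control. PSMB8 was at 6.67 ± 0.719 against 4.47 ± 0.423, PSMB9 at 10.97 ± 0.261 against 8.42 ± 0.232, and PSME2 at 29.1 ± 0.782 against 21.4 ± 0.543, each without overlap. PSMB10, at 8.92 ± 0.521 against 8.56 ± 0.698, and PSME1, at 35.4 ± 1.62 against 34.03 ± 1.47, overlapped. The ratios were 27.3 for UBD, 1.49 for PSMB8, 1.36 for PSME2, 1.30 for PSMB9 and 1.04 for both PSMB10 and PSME1. On the same measure PSMB5, with a ratio of 1.0995, and PSMB6, with a ratio of 1.09, were also higher without overlap, and PSMB7, with a ratio of 1.02, overlapped. No standard subunit had a log2 fold change as large as those of UBD, PSMB8 or PSME2, whereas 12 of the 33 exceeded PSMB10 and 10 exceeded PSME1. PSMB9, at 0.69, was just above the highest of them, ADRM1 at 0.68, and this order turned without HA-TAZ 2 (0.70 against 0.77), control b (0.70 against 0.75) or control c (0.70 against 0.76), with a pseudocount of 5 (0.62 against 0.64) and with 1 row per gene ID (0.58 against 0.68).

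**Figure D3:**
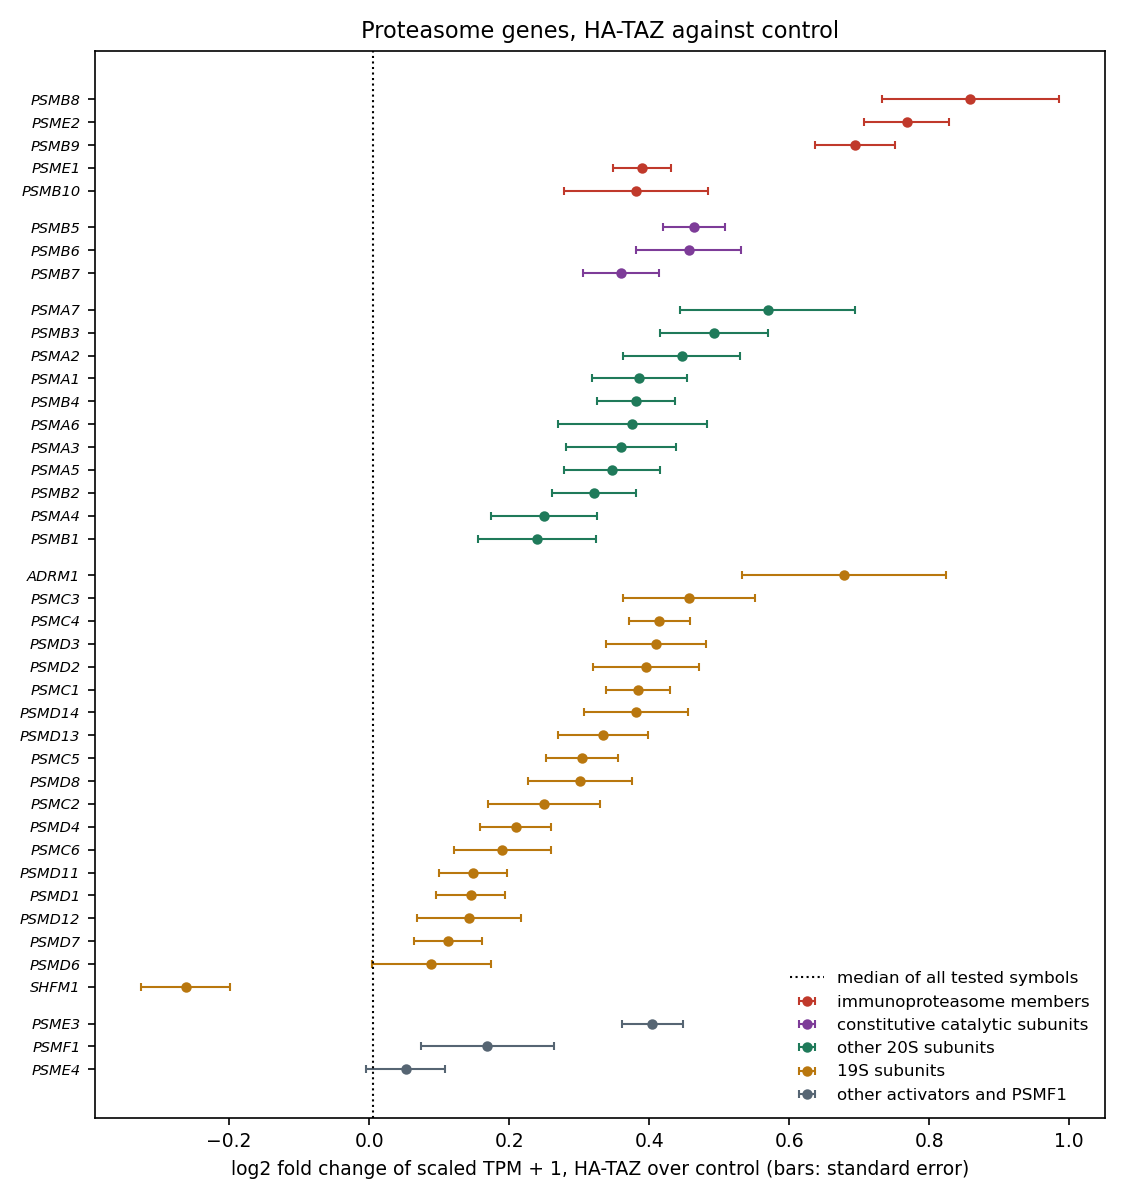
Log2 fold change, HA-TAZ minus control on the log2(scaled TPM + 1) scale, of the proteasome genes by class, 1 point per gene. PSMB8 and PSME2, at 0.86 and 0.77, lie above the standard subunits, whose median is 0.36, PSMB9 at 0.69 lies level with the highest of them, ADRM1 at 0.68, and UBD at 4.44 is left out of the plot.

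By gene, 20 of the 33 standard subunits were called higher, none was called lower and 13 were not called, with a median log2 fold change of 0.36 beside 0.01 for all tested symbols. These calls use limma with Benjamini-Hochberg adjustment over all tested symbols, of which 9.87% were called in either direction. PSMB5 rose by 0.46 (adjusted p = 0.00805), PSMB6 by 0.46 (adjusted p = 0.0280) and PSMB7 by 0.36 (adjusted p = 0.0228). Of the other core subunits 8 of 11 were called higher, led by PSMA7 at 0.57 and PSMB3 at 0.49. Of the 19S subunits 9 of 19 were called higher, among them the ubiquitin receptor ADRM1 at 0.68 and the ATPases PSMC3 at 0.46 and PSMC4 at 0.41. SEM1, listed as SHFM1, had a log2 fold change of -0.26 (adjusted p = 0.0547) and was the only one of the 33 with a negative value. Without scaling none of the 33 was called higher and 1 was called lower, with a median of 0.02 beside -0.27 for all tested symbols. Fewer genes were also called with any 1 library left out. Over all tested symbols the count fell from 2074 to between 167 and 683. Of the 45 standard subunits, assembly factors and other activators, 23 were called, and this fell to 1 without HA-TAZ 1, 3 without HA-TAZ 2, 5 without HA-TAZ 3, 8 without control a, 4 without control b and 8 without control c. Of the named standard subunits PSMB5 stayed called in limma with each library left out (highest adjusted p = 0.0493), and PSMC4 was not called without HA-TAZ 1 (adjusted p = 0.0522). PSMB6, PSMB7, PSMA7, PSMB3, ADRM1 and PSMC3 were not called with HA-TAZ 1, 2 or 3 or control b left out, some of them also without control a or c, with adjusted p up to 0.136 for PSMA7.

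**Figure D4:**
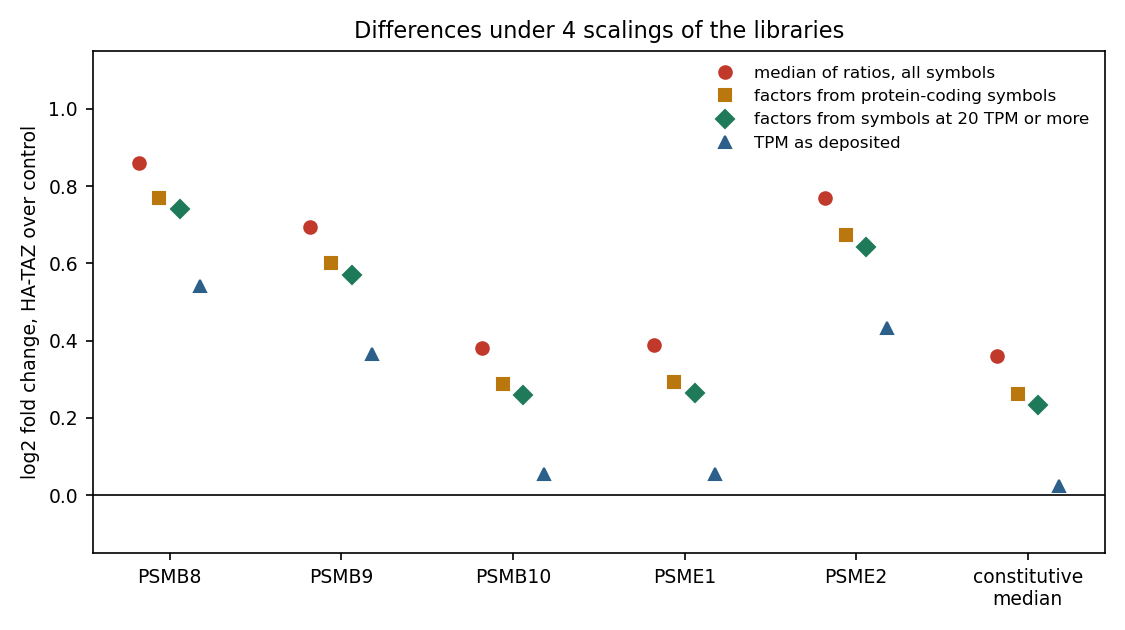
Log2 fold change of PSMB8, PSMB9, PSMB10, PSME1 and PSME2, with the median of the 33 standard subunits, under 4 scalings. The scalings are the median-of-ratios factors, TPM as deposited, and factors from symbols of at least 20 TPM or from protein-coding symbols. PSMB8, PSMB9 and PSME2 lie above the median of the standard subunits under each of the 4. PSMB10 and PSME1 lie at 0.05 in TPM as deposited, close to the 0.02 of the standard subunits. UBD is left out of the plot.

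Of 9 assembly factors 2 were called higher and none lower, beside 7.13% and 2.74% of all tested symbols. POMP, the chaperone that completes the core and is known to help build immunoproteasomes, rose by 0.43 (adjusted p = 0.0334, limma) and PSMG2 by 0.26 (adjusted p = 0.0493, limma). PSMG2 had a log2 fold change of -0.07 in TPM as deposited and POMP one of 0.10 (adjusted p = 0.224, limma), and neither was called. Of PSME3, PSME4 and the inhibitor PSMF1, only PSME3, the nuclear counterpart of PSME1 and PSME2, was called, at 0.40 (adjusted p = 0.0102, limma), and without scaling it was at 0.07 and not called (adjusted p = 0.438). PSME3 was not called without HA-TAZ 1 or 2 (adjusted p up to 0.0559), POMP without HA-TAZ 1, 2 or 3 or control a or b (up to 0.108), and PSMG2 with any 1 of the 6 libraries left out (up to 0.145, limma). None of the 4 genes of the NFE2L1 pathway, which raises standard proteasome genes when proteasome activity falls, was called by limma. NFE2L1 had a log2 fold change of 0.15 (adjusted p = 0.331) and NFE2L2 one of 0.01 (adjusted p = 0.952), and both were negative in TPM as deposited. The testis subunit PSMA8 and the thymus subunit PSMB11 were below the limit on level in both groups.

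Of the 6 tested genes that handle or bind FAT10 2 were called higher and none lower, with a median of 0.12 for the 6. Of all tested symbols 7.13% were called higher and 2.74% lower. In TPM as deposited 1 was called higher and 1 lower, beside 1.26% and 16.3% of all tested symbols, with a median of -0.21. With either of the other factor sets 2 were called higher and 1 lower. With factors from symbols of at least 20 TPM, 587 of all 21011 tested symbols were called higher and 1038 lower. With protein-coding factors these counts were 739 and 877. UBE2Z, the conjugating enzyme, was at 45.9, 49.4 and 46.1 TPM with HA-TAZ and at 44.4, 44.0 and 44.1 TPM in the controls, and rose by 0.42 (adjusted p = 0.0218, limma). Without scaling its log2 fold change was 0.09 and was not called. Without HA-TAZ 1, 2 or 3 or control b it was not called either, with limma adjusted p up to 0.0852. SQSTM1, an autophagy receptor that binds FAT10, rose from 143 ± 3.77 to 224 ± 1.64 TPM, a log2 fold change of 0.98 (adjusted p = 0.00547, limma), and it was called under each alternative run. UBA6, which activates FAT10, had a log2 fold change of 0.10, NUB1, which carries FAT10 to the proteasome, one of -0.03, HDAC6 one of -0.11 and MAD2L1, a spindle checkpoint protein bound by FAT10, one of 0.15, none of them called.

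Within the ubiquitin family UBD changed its place. Among 18 genes of ubiquitin and ubiquitin-like proteins UBD ranked last by TPM in control, below ISG15 at 2.61 TPM, and ranked 13 in HA-TAZ, between SUMO3 at 57.1 TPM and MAP1LC3B at 43.9 TPM. ISG15, the other modifier known for its interferon response, was at 5.39, 6.29 and 6.35 TPM with HA-TAZ and at 2.61, 2.08 and 3.14 TPM in the controls. It rose by 1.23 (adjusted p = 0.0107, limma), without overlap between the groups. UBE2L6, the conjugating enzyme of ISG15, rose by 0.63 (adjusted p = 0.0125, limma). Of the 16 other family members 8 were called higher and none lower, beside 7.13% and 2.74% of all tested symbols. Their median was 0.28, and 14 of the 16 had a positive value, the lowest value being -0.11. UBL5, among those called, was at 0.53. UBL5 was not called by limma with HA-TAZ 1, 2 or 3 or control b or c left out. Without scaling 1 of the 16 was called, with a median of -0.05 for the list. With factors from symbols of at least 20 TPM 2 of the 16 were called higher, and with protein-coding factors 4. The count was 0 without HA-TAZ 1, 2 or 3 or control b, 3 without control a and 4 without control c. With HA-TAZ 1 or 2 left out ISG15 was not called (limma adjusted p up to 0.0537), nor was UBE2L6 (up to 0.0555, also without control b), while their log2 fold changes kept their sign.

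Peptides cut by the proteasome are carried by the TAP transporter to MHC class I, and 7 genes of that route were tested. Of these 5 were called higher and none lower, beside 7.13% and 2.74% of all tested symbols. Their median was 0.53, and 6 of the 7 had a positive value, the lowest value being -0.16. TAP1 was at 34.5, 35.3 and 34.7 TPM with HA-TAZ and at 20.07, 19.6 and 20.6 TPM in the controls, with no overlap, and its log2 fold change was 1.09 (adjusted p = 0.00278, limma) beside 0.69 for its neighbour PSMB9. NLRC5, the transactivator of MHC class I genes, rose by 0.70 (adjusted p = 0.0102), TAP2 by 0.57 (adjusted p = 0.0339) and B2M, the light chain of MHC class I, by 0.53 (adjusted p = 0.0384), all by limma. Without scaling TAP1 alone of the 7 was called, at 0.76, with a list median of 0.19. TAP1 also stayed called with each library left out. NLRC5 was not called without HA-TAZ 1 (limma adjusted p = 0.0564), TAP2 with any 1 library but control a left out (up to 0.115) and B2M with any 1 of the 6 left out (up to 0.116).

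Among the cytokines and factors known to switch on UBD and the immunoproteasome, 12 of 16 were tested. Of these 6 were called higher and none lower, beside 7.13% and 2.74% of all tested symbols. Their median was 0.60, and 11 of the 12 had a positive log2 fold change. The other, JAK2, was at -0.28, lower in every HA-TAZ library than in every control library in scaled TPM, and was not called. Without scaling 4 were called higher and 1 lower, with a median of 0.27. With 1 library left out 3 were called higher without HA-TAZ 1, HA-TAZ 2 or control b, and 4 without HA-TAZ 3, control a or control c. RELB, an NF-kB subunit, was at 27.2, 26.7 and 27.8 TPM with HA-TAZ and at 13.02, 14.7 and 14.99 TPM in the controls, and rose by 1.21 (adjusted p = 0.00762, limma). IRF1, which binds ISRE letters, was at 42.8, 42.9 and 43.3 TPM with HA-TAZ and at 26.7, 25.2 and 24.8 TPM in the controls, and rose by 1.06 (adjusted p = 0.00167, limma). Neither gene overlapped between the groups, and both were called under each alternative run. NFKB2 rose by 0.66 (adjusted p = 0.0195, limma), and it was not called without HA-TAZ 1, 2 or 3 or control b (limma adjusted p up to 0.0798). RELA, at 0.13, and NFKB1, at 0.25, were not called. The inducing cytokines themselves were under the limit on level and not tested. IFNG was at 0 in each HA-TAZ library, TNF was at 0.0640 ± 0.0461 TPM with HA-TAZ against 0.0233 ± 0.0214 TPM in control, and IFNB1 was at 0.559, 0.510 and 0.445 TPM with HA-TAZ and at 0.0906, 0.0215 and 0.0325 TPM in the controls.

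UBD, PSMB8 and PSMB9 lie in the MHC region, which the annotation used by the authors lists several times as alternative haplotypes, so reads are split between near-identical copies and the values of single copies are uncertain. UBD had 7 gene IDs, of which 3 were above 0, and ENSG00000206468 held 69.5% of its TPM. That copy was at 36.3, 37.1 and 30.8 TPM with HA-TAZ and at 1.22, 1.43 and 1.11 TPM in the controls. In the authors' deposited table the natural log effects of the 2 most abundant UBD transcripts were 3.54 (SE 0.162) for ENST00000383547.3 and 3.56 (SE 0.485) for ENST00000432676.2. PSMB9 had 5 copies with about equal shares, from 19.72% to 19.97% each, and the authors' deposited table gives its transcript ENST00000374859.2 an effect of 0.500 (SE 0.112).

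The copies of PSMB8 did not keep the same shares in all libraries. The copy ENSG00000235715 was at 7.86 TPM in control a and between 0.619 and 0.944 TPM in the other 5 libraries, while the sum over all 8 copies in control a was 13.1 TPM. The copy ENSG00000204264, at 0.528 TPM in control a and at 1.75 and 1.87 TPM in control b and c, was lowest in that library. In the authors' deposited table the most abundant PSMB8 transcript, ENST00000446762.2, has an effect of 1.17 (SE 0.264). The next, ENST00000457261.2, has one of -0.611 (SE 0.982), smaller than its error, and was at 7.43 TPM in control a against 0.327 and 0.395 TPM in control b and c. The transcript ENST00000374882.3, close to it in mean TPM and chosen after its values were seen, has an effect of 1.40 (SE 0.925) in the authors' deposited table. With 1 row per gene ID the log2 fold change of the most abundant PSMB8 copy was 1.21, against 0.86 for the sum.

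**Figure D5:**
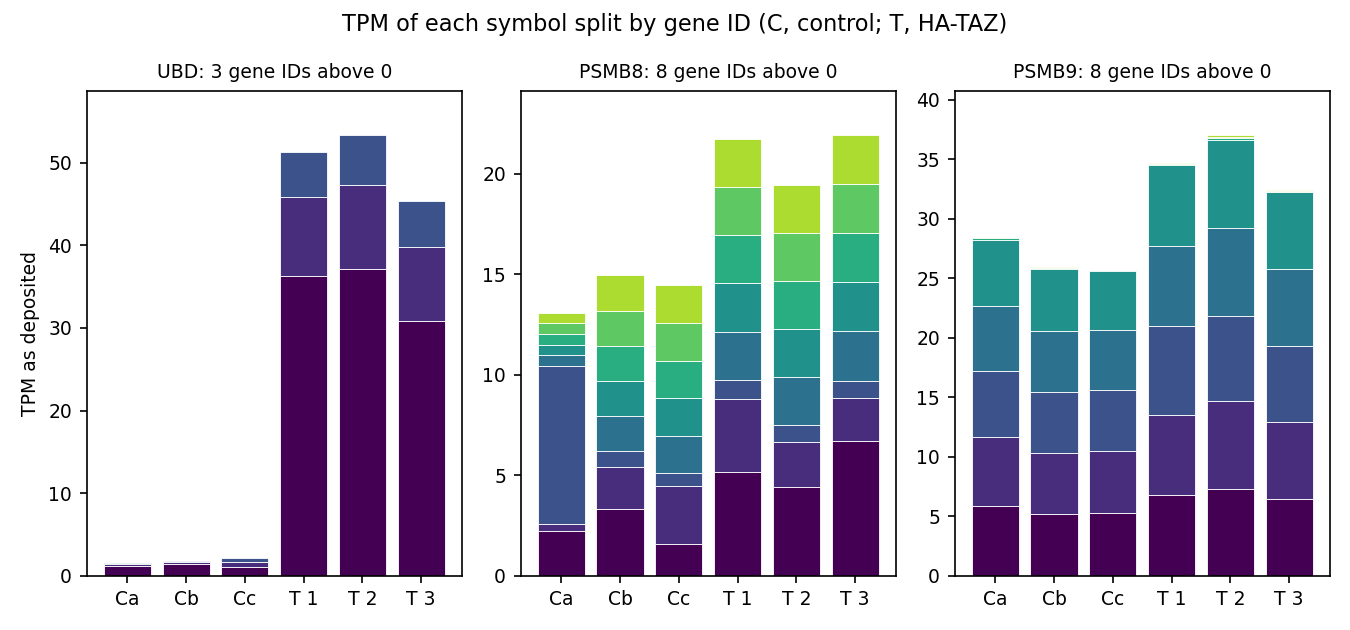
TPM of UBD, PSMB8 and PSMB9 per library, stacked by gene ID, with control a to c (Ca, Cb, Cc) and HA-TAZ 1 to 3 (T) on the x axis. The stack of PSMB8 in control a is made mostly of 1 copy at 7.86 TPM that is small elsewhere, and the total of 13.1 TPM lies near those of the other control libraries.

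PSMB10, PSME1 and PSME2 have 1 gene ID each. For PSMB10 the most abundant transcript, ENST00000570985.1, is annotated as a retained intron and held 45.3% of the TPM in HA-TAZ and 53.02% in control. Its level was 12.8 ± 1.71 TPM with HA-TAZ against 14.4 ± 1.73 TPM in control, and the authors' deposited table gives it an effect of 0.0933 (SE 0.116). The protein-coding ENST00000358514.4 was at 9.08 ± 1.0503 TPM with HA-TAZ against 6.40 ± 0.917 TPM in control, without overlap, with an effect of 0.574 (SE 0.139) in the authors' deposited table. The difference between these effects was not tested. Summed over its 2 protein-coding transcripts, PSMB10 was at 11.7 ± 1.30 scaled TPM with HA-TAZ against 7.32 ± 2.04 in control (SD, n = 3 each). These groups did not overlap in scaled TPM and overlapped in TPM as deposited. Its 3 other transcripts were at 19.8 ± 3.31 against 16.6 ± 1.66 scaled TPM and overlapped on both scales. For PSME1 the main transcript ENST00000206451.6, protein-coding and with 87.3% of its TPM in HA-TAZ, had an effect of 0.259 (SE 0.0531) in the authors' deposited table. For PSME2 that table gives 0.523 (SE 0.0746) for ENST00000560410.1 and 0.531 (SE 0.0832) for ENST00000216802.5, both protein-coding.

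Several members overlap other genes in GENCODE 29, and since use of the strand in counting is not given in the sources used here, reads of overlapping genes cannot be told apart. UBD overlaps OR2I1P, an olfactory receptor gene on the opposite strand, and OR2I1P was at 7.15 ± 1.24 TPM with HA-TAZ against 0.127 ± 0.0857 TPM in control. UBD also overlaps GABBR1, on the same strand, which was at 1.64 ± 0.205 TPM with HA-TAZ against 2.92 ± 0.866 TPM in control, with a log2 fold change of -0.32 in scaled TPM that was not called (adjusted p = 0.279, limma). PSMB9 overlaps TAP1 and PSMB8 on the opposite strand, PSME1 overlaps EMC9 and PSME2 overlaps RNF31, also on the opposite strand. The non-coding PSMB8-AS1 overlaps PSMB8 on the opposite strand and PSMB9 on the same strand. PSMB10 overlaps the protein-coding AC040162.1, and PSME2 the microRNA gene MIR7703, both on the same strand. The amount of reads behind the members differs. The authors' deposited table gives a mean natural log estimated count per transcript, which out of the log is a geometric mean. Summed over transcripts, these came to 500.4 for UBD, 826 for PSMB8, 1210 for PSMB9, 1116 for PSMB10, 5723 for PSME1 and 3732 for PSME2. Not being split by group, they do not show the counts of the control libraries, where UBD was low.

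The tested symbols whose pattern over the 6 libraries lay nearest to that of UBD were sought by the distance between centred log2(scaled TPM + 1) values. They were CXCL10 (distance 1.28), a chemokine induced by interferon, OR2I1P (1.81), RNY4 (1.86), IFIT2 (2.28), an interferon-induced gene, and RNA5SP474 (2.47). CXCL10 was at 36.5 ± 2.46 TPM with HA-TAZ against 3.32 ± 0.144 TPM in control, and IFIT2 at 7.02 ± 0.829 against 0.499 ± 0.132 TPM. RNY4 and RNA5SP474, both short non-coding RNAs, were listed at 0 in all control libraries. Nearest to the mean pattern of the other 5 members were LRRC61 (0.0514), STAT3 (0.0628), GPX4 (0.0649), HN1 (0.0774) and RGS16 (0.0800). STAT3 was at 33.8 ± 0.679 TPM with HA-TAZ against 27.3 ± 0.918 TPM in control, a log2 fold change of 0.62. With only 6 libraries in 2 groups, nearness mostly says that a gene has a like difference between the groups.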

How the data were processed

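The authors deposited transcript TPM of 3 HA-TAZ and 3 control libraries of total RNA, and per the submitters' processing notes kallisto 0.46.0, sleuth 0.30.0 and GRCh37 were used. The annotation release and the strand setting are not given in the sources used here. The authors also deposited a sleuth table per transcript with p-values, q-values and, per the file headers, a natural log effect and a mean of natural log estimated counts. The deposited TPM carry no depth per library, so the spread between libraries sets the precision. HA-TAZ columns match the sample titles by number. The scr columns were taken as wild type by elimination and are called control a, b and c.

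TPM was summed per symbol and divided by median-of-ratios factors. Symbols with a mean of at least 1 TPM were tested with limma 3.58.1 (R 4.3.3) on log2(scaled TPM + 1) with its intensity trend. Its two-sided p-values were adjusted by Benjamini-Hochberg over all 21011 symbols, with a threshold of 0.05. The code was tested on simulated data. The members and lists were chosen with earlier results of these data known. Named were all members, WWTR1, PSMB5, PSMB6, PSMB7, at most 4 called genes per list with the largest change (with no call, the 2 most abundant), the 5 nearest symbols and the 2 most abundant transcripts per member. SEM1, UBA6, NUB1, HDAC6, MAD2L1, JAK2, RELA, NFKB1, GABBR1, the untested cytokines and the neighbours in the rank of UBD fall outside that rule and were chosen after their values were seen. Other scalings, pseudocounts, filters, tests, summing and left-out libraries were tried. Transcript types and overlaps come from GENCODE 29, matched by ID or symbol without coordinates, and start windows from RefSeq, GRCh38.p14. Results on some genes that the naming rule picks are not reported here.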

Additional observations from a re-analysis of the deposited data

How the results depend on the processing

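No paired analysis was possible because the control columns cannot be tied to labelled samples and the labels tie no number to a batch. Of all tested symbols 2074 were called (72.3% higher). The count was 3693 in TPM as deposited (7.18% higher), 778 with no filter on level and 831 without the trend, and it ran from 167 to 683 with 1 library left out. With factors from symbols of at least 20 TPM 36.1% of calls were higher, and with factors from protein-coding symbols, chosen after seeing the data, 45.7%. Of 45 proteasome-related genes outside the members 23 were called, all higher, against 2 in TPM as deposited, both lower, 11 with factors from symbols of at least 20 TPM (1 lower), 14 with protein-coding factors (1 lower), 7 with no filter, 6 without the trend and from 1 to 8 with 1 library left out. The summed standard subunits had a ratio of 1.26, which was 0.998 in TPM as deposited (exact permutation p = 0.9) and ran from 1.23 to 1.29 with 1 library left out. The causes were not tested. All 6 members kept their direction under each alternative, which is a description only, since values of the same libraries chose them. With 1 library left out the log2 fold change ran from 4.33 to 4.53 for UBD, from 0.76 to 0.96 for PSMB8, from 0.66 to 0.74 for PSMB9, from 0.31 to 0.46 for PSMB10, from 0.38 to 0.41 for PSME1 and from 0.72 to 0.80 for PSME2. In TPM as deposited PSMG2 (-0.068), NFE2L1 (-0.18) and NFE2L2 (-0.32) changed sign. NFE2L2 was also negative with factors from symbols of at least 20 TPM (-0.12), with protein-coding factors (-0.087), and without HA-TAZ 1 (-0.017), control b (-0.021) or control c (-0.0070), in a range up to 0.055. Over the other named genes and the 6 left-out libraries, 133 values kept their direction and side of the threshold, 122 lost the call and 3 changed sign. The depth of each library is unknown, and genes near 1 TPM are the least precise.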
